A study of Mus musculus with 10 samples.

Results

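Cell division and DNA replication were followed through 42 named genes, 16 that act in DNA replication, 24 that act in mitosis and 2 cyclins of the G1 phase. The members were found on the array by gene symbol, and no measured value entered that match. The genes themselves were chosen with earlier results of these data known. Of the 42 genes, 40 had at least 1 probe set of their own, 76 probe sets in all, against 12393 genes on the array as a whole. No probe set was matched to Ccnb1 or Cdca8, and no value is given for them. Each gene is represented by its brightest probe set. A gene was tested when its signal was above the pooled median of all probe sets and arrays, 99.2, on at least 2 of the 10 arrays. That left 39 members among 7474 genes, with 15 replication genes, 22 mitosis genes and both G1 cyclins. Tyms, the thymidylate synthase gene, was not tested. Its signal was 19.4 and 24.5 on the unstimulated arrays and between 26.1 and 87.7 on the stimulated ones, all under the pooled median.

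The arrays measured RNA of dendritic cells grown from bone marrow of C57BL/6 mice and of Cd14-/- mice on the same background, 6 to 8 weeks old. Cells were cultured for 7 to 10 days and used when at least 90% carried CD11c. In each genotype 1 culture, harvested at 24 h, received no stimulus, and the others received LPS at 1 µg/ml, alone or with 50 nM thapsigargin, and were harvested at 48 or 60 h. Each of the 10 conditions had 1 array, and no array had thapsigargin alone. LPS is the bacterial lipopolysaccharide sensed by TLR4, CD14 is the co-receptor that hands LPS to TLR4, and thapsigargin raises cytosolic calcium by inhibiting the SERCA pump. The stated purpose of the series concerned apoptosis genes under the control of NFAT, which calcium activates. The stimulated cells were also cultured for longer than the unstimulated ones, so that LPS and time in culture cannot be told apart. The labels do not say from how many mice a culture came.

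A cell copies its DNA in S phase and parts the copies in mitosis. D and E cyclins start the process by releasing E2F transcription factors from the retinoblastoma proteins, and E2F factors drive many replication genes. Most mitosis genes are held down by the DREAM complex in resting cells and switched on later by the MuvB complex with B-MYB and FOXM1, through a short element called the CHR, often with a CCAAT box bound by NF-Y beside it. Bone-marrow cultures contain dividing precursors, and dendritic cells are known to stop dividing as they mature.

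The promoters show how the replication and mitosis genes differ in sequence. The RefSeq promoter table (GRCm38.p6) held 35 of the 42 genes, each with windows of 300 bases, from 250 before to 50 after the annotated start. Windows were searched on both strands for CCAAT, for the CHR as TTTGAA, and for E2F sites as TTTGGCGC, TTTCCCGC or TTTCGCGC. The CHR letters were in the windows of 14 of 19 mitosis genes, 73.7%, and of 1 of 15 replication genes, 6.67%, against 20.2% of all 27025 genes in the table. E2F letters were in 7 of 15 replication genes, 46.7%, and 1 of 19 mitosis genes, 5.26%, against 2.12% of all genes. CCAAT was in 17 of 19 mitosis genes, 89.5%, and 10 of 15 replication genes, 66.7%, against 41.1% of all genes. A match of letters describes the window and does not show that a factor binds there.

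Shown here, 5′ to 3′ along the gene's own strand, are the 150 bases just before the start of the 3 replication and 3 mitosis genes in the table with the largest fitted fall under LPS in wild-type cells, and of Mcm6 and Cdk1, which were added after their values were seen because they hold E2F letters. Capitals mark the searched letters or their reverse complements where the whole match is printed. In Mcm6 the first E2F match overlaps a second one on the other strand.
Rrm2, chr12:24708104-24708253, plus strand: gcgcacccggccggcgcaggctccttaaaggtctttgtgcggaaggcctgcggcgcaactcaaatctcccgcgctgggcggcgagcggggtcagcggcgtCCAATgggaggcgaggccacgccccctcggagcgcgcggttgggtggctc
Pclaf, chr9:65890173-65890322, plus strand: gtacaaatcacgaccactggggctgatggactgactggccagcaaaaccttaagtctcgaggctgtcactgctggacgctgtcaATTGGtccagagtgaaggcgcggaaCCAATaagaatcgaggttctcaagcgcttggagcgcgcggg
Rad51ap1, chr6:126939588-126939737, minus strand: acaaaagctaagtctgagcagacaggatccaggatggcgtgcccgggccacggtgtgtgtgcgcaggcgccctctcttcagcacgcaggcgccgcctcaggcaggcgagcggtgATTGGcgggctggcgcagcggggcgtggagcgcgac
Mcm6, chr1:128359706-128359855, minus strand: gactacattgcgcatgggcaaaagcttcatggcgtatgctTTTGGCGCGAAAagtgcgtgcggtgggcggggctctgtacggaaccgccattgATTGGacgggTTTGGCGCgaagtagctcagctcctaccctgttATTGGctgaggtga
Ube2c, chr2:164769779-164769928, plus strand: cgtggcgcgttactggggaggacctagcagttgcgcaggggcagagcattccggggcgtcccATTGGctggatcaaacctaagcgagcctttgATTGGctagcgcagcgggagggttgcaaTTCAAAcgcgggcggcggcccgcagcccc
Cdca3, chr6:124830026-124830175, plus strand: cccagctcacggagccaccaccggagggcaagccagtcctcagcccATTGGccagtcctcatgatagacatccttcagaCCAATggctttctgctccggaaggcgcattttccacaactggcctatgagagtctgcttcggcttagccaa
Ccnb2, chr9:70421555-70421704, minus strand: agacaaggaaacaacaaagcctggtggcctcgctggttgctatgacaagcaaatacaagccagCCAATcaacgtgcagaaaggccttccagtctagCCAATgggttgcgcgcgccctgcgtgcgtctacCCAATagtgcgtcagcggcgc
Cdk1, chr10:69352913-69353062, minus strand: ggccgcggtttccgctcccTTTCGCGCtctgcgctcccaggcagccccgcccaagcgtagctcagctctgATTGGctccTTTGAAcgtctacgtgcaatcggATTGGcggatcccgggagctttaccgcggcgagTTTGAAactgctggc
Every printed window has CCAAT letters on one strand or the other. Cdk1 holds CCAAT, CHR and E2F letters together, while Ube2c holds CCAAT and CHR letters. In Cdca3 the CHR letters lie after the start, and in Ccnb2 they lie on both sides of the printed stretch, so they are not shown. In Pclaf an E2F match on the other strand crosses the start, as does a further CCAAT match in Cdca3, and their printed bases stay in lower case.

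The values are scaled MAS5 signals, an array brightness with no absolute unit, and signals under 13.4, the pooled 25th percentile, were treated as background and raised to that floor. Changes are log2 differences ± standard error from 1 limma model over all 10 arrays. The genotype was plain: Cd14 had a signal of 1499 in unstimulated and 15538 to 17729 in stimulated wild-type cells, and under 13.4 on the 5 CD14-deficient arrays. RNA integrity numbers ran from 8.4 to 10. The 48 h LPS array of CD14-deficient cells stood apart. It had the lowest cRNA yield, 15 µg, and its 18S control probe sets read 114 to 385, against 217 to 685 for wild-type LPS cells at 60 h (19 µg) and at least 1426 on the other arrays. On that array the summed signal of 11 dendritic cell markers was 42179, against 16739 to 31561 on the others. Ccr7 (16168), Irf8 (8369) and Cd86 (8105) made up most of that sum. Itgax, the gene of CD11c, read 892 there, against 7838 on the unstimulated array of the genotype and 750 to 1017 with thapsigargin. Cd209a and Clec10a were also under that unstimulated array, and the rest of the list was above it. The summed signal of 10 macrophage markers on the 48 h array was 9863, against 15181 to 43688. The summed signal of 7 myeloid progenitor markers was 1660 there and 348 to 745 elsewhere, with Kit at 1347 and 3 of the 7 at the floor. Other marker lists moved with the treatments. The sum of 8 neutrophil genes was 18087 and 17299 on the unstimulated arrays, 3334 to 12171 with LPS and 1345 to 4672 with thapsigargin added. Mmp8 and S100a8 made up most of the unstimulated and LPS sums. Camp and Mmp9 went the other way with LPS. Camp read 51.8 and 196 unstimulated and 118 to 356 with LPS, and Mmp9 read 82.1 and 74.2, then 142 to 414. The sum of 6 stromal genes was 48.6 and 77.2 unstimulated, 436 to 2902 with LPS and 185 to 303 with thapsigargin. Dcn made up most of the highest of these sums. Sums of 6 mast cell and basophil genes were 364 and 224 unstimulated and 955 to 1982 on stimulated arrays. Hdc made up most of each stimulated sum, at 750 to 1716 against 2.01 and 2.13 unstimulated. Cpa3 and Mcpt8 were lower on every stimulated wild-type array than on the unstimulated one, and were mixed without CD14. Sums of 5 B cell genes ran from 78.1 to 523, highest on the 48 h LPS array of CD14-deficient cells. The erythroid list (5 genes) and the T and NK cell list (4 genes) had 0 genes that passed the filter. The part that these differences play in the results below was not tested, and counts that rest on this array are also given without it.

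Most cell division genes were lower in wild-type cells harvested at 48 or 60 h with LPS than in unstimulated ones harvested at 24 h. In limma's fit 34 of the 39 tested members were lower at an adjusted p under 0.05 and 0 were higher, while 8.24% of all tested genes were lower and 7.69% were higher. The median member changed by log2 -3.41, against -0.03 over all tested genes. The filter favours falls here, because 10 members passed it only through the 2 unstimulated arrays. All of them but Tk1 are mitosis genes (Ccnb2, Plk1, Aurka, Aurkb, Bub1b, Cdc20, Cdca3, Kif11 and Kif20a). Counts of mitosis genes therefore lean on the filter more than those of replication genes. Among the other 29, 24 were lower. With other filters 14 of 20 or 12 of 18 members were lower, against 6.09% and 5.59% of all tested genes. Leaving out either wild-type LPS array lowered the count of members, and calls among all tested genes too. The count was 17 without the 48 h LPS array of wild-type cells and 21 without the one at 60 h. Each genotype has 1 unstimulated array, so the reference of this change has no error of its own and could not be left out. In RNA of a whole culture, fewer dividing cells and less RNA per cell cannot be told apart.

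Both G1 cyclins fell. Ccnd1, cyclin D1, had a signal of 1681 in unstimulated wild-type cells and 84.8 and 91.4 with LPS at 48 and 60 h, a change of log2 -4.25 ± 0.44 (limma adjusted p = 0.00545). Its 3 probe sets, each fitted on its own, changed by log2 -4.24 to -5.31. Ccne1, cyclin E1, went from 357 to 90.2 and 94.7 (-1.95 ± 0.28).

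Replication licensing genes fell less evenly. Mcm2 to Mcm7 encode the ring-shaped helicase that opens DNA, and Cdc6 helps to load it. Mcm5 had a signal of 575 unstimulated and 18.6 and 42.5 with LPS, a change of log2 -4.35 ± 0.50. Cdc6 went from 219 to 12.8 and 23.5 (-3.63 ± 0.84). Mcm3 (-2.63 ± 0.62), Mcm4 (-1.93 ± 0.44) and Mcm7 (-2.53 ± 0.39) also fell. Mcm6 and Mcm2 did not pass the test. Mcm6 read 2042 unstimulated and 563 and 872 with LPS (-1.54 ± 0.65, limma adjusted p = 0.16), and Mcm2 read 487 and then 124 and 202 (-1.62 ± 0.57, adjusted p = 0.111). Both were nevertheless lower on both LPS arrays than on the unstimulated one.

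The genes that supply nucleotides held some of the deepest falls. Rrm2, the regulated subunit of ribonucleotide reductase, had a signal of 2591 in unstimulated cells and 41.0 and 44.2 with LPS, a change of log2 -5.93 ± 0.35 (limma adjusted p = 0.00125). Its 3 probe sets gave changes between -5.26 and -5.97. Tk1, thymidine kinase, went from 276 to 2.88 and 2.05, both at background, so that it was at least 20.6-fold lower. Rrm1, the large reductase subunit, fell (-3.05 ± 0.75), as did Dut, which removes dUTP (-1.76 ± 0.43). At the replication fork, Pclaf, a partner of the PCNA clamp, went from 2794 to 58.7 and 99.5 (-5.19 ± 0.42). Rad51ap1, a DNA repair gene, went from 603 to 15.8 and 21.7 (-5.02 ± 0.59). Lig1, the ligase of lagging strands, fell by 2.20. Pcna itself stayed bright. It read 8693 unstimulated and 6213 and 5562 with LPS, a change of -0.56 ± 0.23 that did not pass (limma adjusted p = 0.154).

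Mitosis genes fell in 20 of 22 cases, with a median of log2 -3.52. Ube2c, the ubiquitin-conjugating enzyme of the anaphase-promoting complex, had a signal of 1312 unstimulated and 5.66 and 8.87 with LPS. It was at background on both LPS arrays and at least 98.0-fold lower. Ccna2, cyclin A2, went from 941 to 24.1 and 26.6 (-5.22 ± 0.30), and Ccnb2, a mitotic cyclin, from 504 to 12.9 and 32.9 (-4.59 ± 0.50). Shcbp1 went from 519.5 to 14.4 and 22.2 (-4.86 ± 0.46), and Cdca3, a gene of mitotic entry, from 493 to 11.6 and 29.6 (-4.63 ± 0.44). Kif11, the motor that pushes spindle poles apart, went from 259 to 13.2 and 8.30 and was at least 19.3-fold lower. Mki67, which coats mitotic chromosomes and encodes the proliferation marker Ki-67, went from 1366 to 178 and 207 (-2.83 ± 0.42). Top2a, the topoisomerase that untangles chromosomes, went from 1391 to 146 and 141 (-3.28 ± 0.29).

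Cdk1, the kinase that drives entry into mitosis, fell less, from 1184 to 348 and 261 (-1.97 ± 0.30), as did Tpx2, a spindle assembly factor (-1.44 ± 0.33). The other called mitosis genes, Plk1, Aurka, Aurkb, Bub1, Bub1b, Cdc20, Nusap1, Prc1, Kif20a and Birc5, had changes between log2 -2.46 and -4.37. The exceptions were Cks2 and Cenpa. Cks2, a small subunit that binds Cdk1, read 1862 and then 1495 and 1705 (-0.22 ± 0.20, limma adjusted p = 0.485), and its other probe set changed by -0.05. Cenpa, the histone H3 variant of centromeres, was higher on both LPS arrays, 2157 and 1450.2 against 898, but did not pass (0.98 ± 0.34, adjusted p = 0.103).

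**Figure D1:**
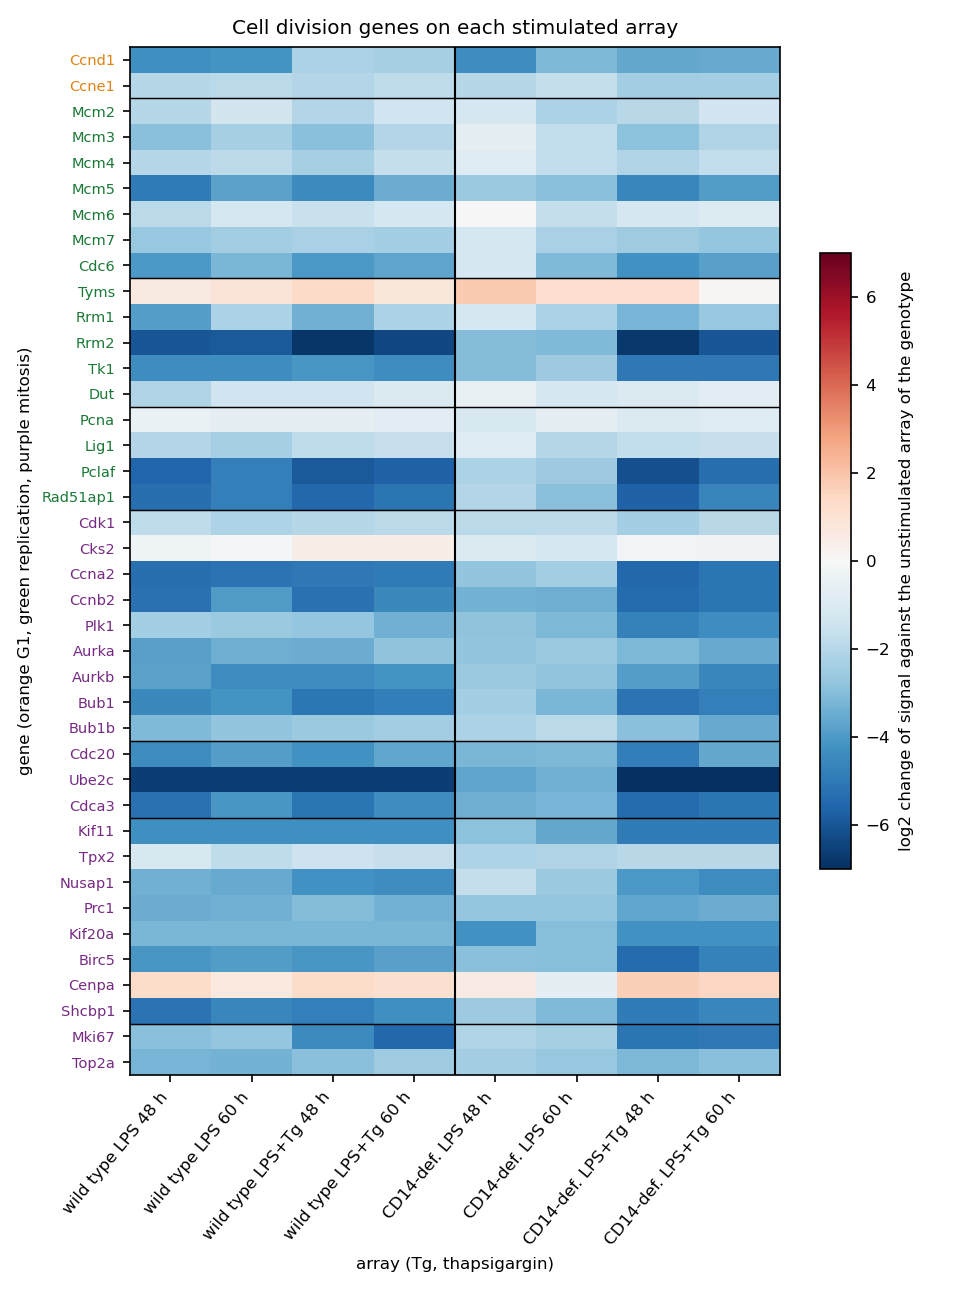
Heat map of the 40 measured members (rows, grouped by role) on the 8 stimulated arrays (columns), coloured by the log2 change of floored signal against the unstimulated array of the same genotype. Most rows are blue throughout, Cenpa and Cks2 are the exceptions among mitosis genes, the CD14-deficient LPS columns are paler, and Tyms lay under the pooled median of 99.2 on every array.

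In CD14-deficient cells 26 of the 39 tested members were lower under LPS and 0 were higher, against 2.01% and 2.17% of all tested genes, and the median change was log2 -2.49. With other filters 7 of 20 or 5 of 18 members were lower, and with no filter 9 of 40, against 0.747%, 0.655% and 1.93% of all tested genes. Of the 15 replication genes 4 passed, Rrm2 (-3.06 ± 0.35), Tk1 (-2.79 ± 0.42), Mcm5 (-2.77 ± 0.50) and Pclaf (-2.40 ± 0.42). Of the 22 mitosis genes 20 passed, all but Bub1b (-2.03 ± 0.43, limma adjusted p = 0.0642) and Cenpa (-0.05 ± 0.34). Both G1 cyclins fell, Ccnd1 (-3.74 ± 0.44) and Ccne1 (-1.82 ± 0.28). Cks2, which did not pass in wild-type cells, fell from 2789.5 to 1366 and 1177 (-1.14 ± 0.20, adjusted p = 0.0414). Without the members that passed the filter only unstimulated, of which all but Tk1 are mitosis genes, 17 of 29 were lower. Calls among all tested genes rose or fell with the same arrays as the count of members, and this count depended on single arrays. It was 38 without the 48 h LPS array of CD14-deficient cells, 1 without either wild-type LPS array and 0 without any 1 of the 4 thapsigargin arrays.

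Under LPS, the expression of 14 members was lower in wild-type than in CD14-deficient cells and 0 were higher, against 2.57% and 2.61% of all tested genes. The median member differed by log2 -1.37. The count of 14 depended on the filter and the probe-set rule. With other filters 4 of 20 or 2 of 18 members were lower, with no filter 2 of 40, and with the mean of all probe sets 7. The shares of all tested genes were 2.12%, 1.95%, 0.299% and 2.55%. Rrm2 read 41.0 and 44.2 on the wild-type LPS arrays and 303 and 289.5 on the CD14-deficient ones, a difference of -2.80 ± 0.29 (limma adjusted p = 0.0165). Pclaf read 58.7 and 99.5 against 774 and 610.1 (-3.17 ± 0.34), and Ccna2 read 24.1 and 26.6 against 197 and 244 (-3.12 ± 0.24, adjusted p = 0.0113). For these genes, picked from the called ones, the arrays of the 2 genotypes did not overlap at 48 or 60 h. How many of all genes do so was not counted.

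Ube2c was at background on both wild-type LPS arrays and at 159 and 198 on the CD14-deficient ones, at least 13.3-fold apart. Tk1 read 53.9 and 73.7 in CD14-deficient cells, at least 4.70-fold above the wild-type arrays. Rad51ap1 read 15.8 and 21.7 against 163 and 91.3 (-2.72 ± 0.48). The other genes called lower in wild-type cells were the mitosis genes Bub1 (24.6 and 30.6 against 159.6 and 89.8), Shcbp1 (14.4 and 22.2 against 122 and 82.8), Cdca3, Nusap1, Birc5, Aurkb, Prc1 and Top2a. So 4 of 15 replication genes and 10 of 22 mitosis genes passed, with median differences of log2 -1.62 and -1.48. The members that did not pass ranged from -1.94 ± 0.41 for Mcm5 (limma adjusted p = 0.0555) to 0.82 for Cenpa. Ccnb2 (-1.73), Cdc6 (-1.68), Mcm3 (-1.67), Kif11 (-1.64) and Rrm1 (-1.62) were among those with large differences that missed the threshold, while Cdk1, Plk1, Kif20a, Pcna, Tpx2 and Mcm2 lay between -0.62 (Kif20a) and 0.24 (Tpx2). For Cks2 and Cenpa the wild-type arrays were the higher ones, by 0.33 ± 0.16 and 0.82 ± 0.27, with neither called.

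These calls rested on single arrays. There were 19 members lower when the 48 h LPS array of CD14-deficient cells was left out, 29 when their 60 h one was, and 0 without any 1 of the other 6 stimulated arrays. Without those 48 h and 60 h arrays in turn, 9.22% and 25.3% of all tested genes were lower, so that calls rose among all genes. At single times, 31 of 40 members were at least 2-fold higher in CD14-deficient than in wild-type LPS cells at 48 h, against 17.9% of all tested genes, and 22 of 40 at 60 h, against 7.6%. When the LPS response itself was compared between the genotypes, 0 members passed in limma's fit, as did 0% of all genes. At an unadjusted p under 0.05 there were 9 members and 613 genes. For 7 of the 39 members (Cenpa, Cks2, Tpx2, Plk1, Kif20a, Pcna and Mcm2) the fitted change was the more negative one without CD14. For Mcm2 this held for the brighter probe set only. Its other one read 445 and then 89.8 and 217 in wild type, and 628 and then 171 and 323 without CD14, a smaller fall. The smaller falls of the other members are described here and not called. Without the 48 h LPS array of CD14-deficient cells 1 member passed as having the deeper fall in wild type, against 0.0268% of all tested genes, and 17 did without the one at 60 h, against 9.47%. The comparisons share arrays, since the same LPS arrays enter both the response of a genotype and the contrast between genotypes.

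**Figure D2:**
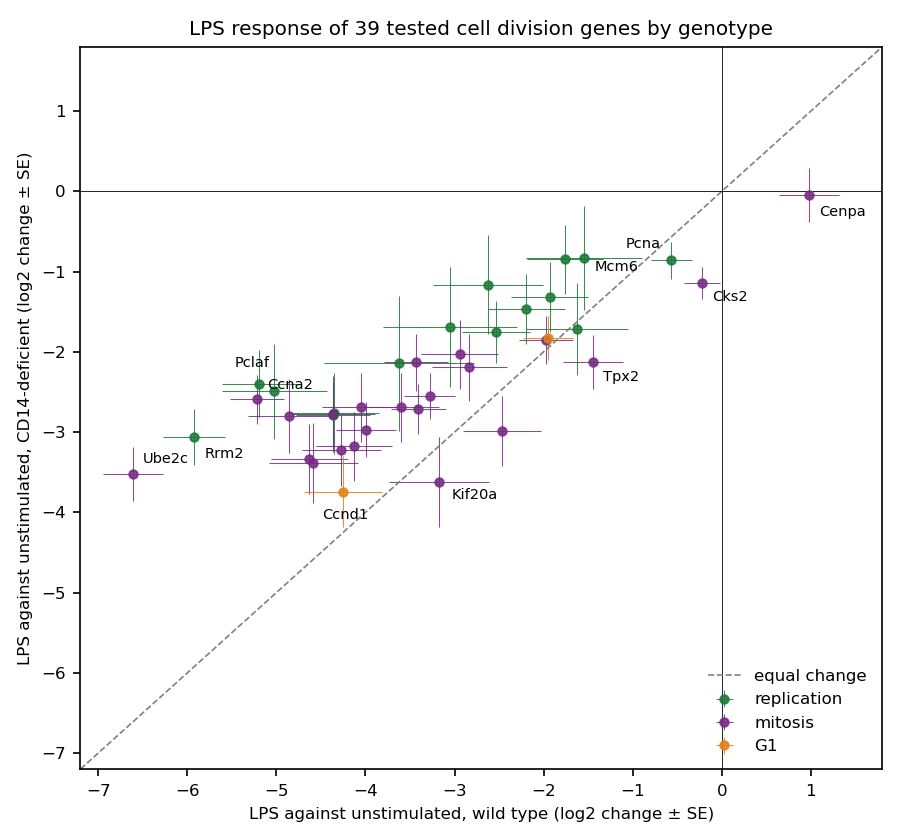
LPS response of the 39 tested members, wild type on the x axis and CD14-deficient on the y axis, as log2 change with standard errors from limma, coloured by group. Most points lie above the dashed line of equal change, which means a smaller fall without CD14, while Cenpa, Cks2, Tpx2, Plk1, Kif20a, Pcna and Mcm2 lie below it. Each gene is drawn with its brightest probe set, and the other one of Mcm2 fell less without CD14.

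Before stimulation the genotypes were close, with a small shift. Of 40 members, 39 were higher on the unstimulated CD14-deficient array than on the wild-type one, with a median difference of log2 0.43, against 0.01 over all tested genes. The median was 0.52 for mitosis genes and 0.24 for replication genes. At least 2-fold higher was only Kif20a (254 against 121), and 0 members were 2-fold lower, against 0.776% and 0.549% of all tested genes. With 1 array a genotype this difference has no replicate check. Under LPS the median difference of wild-type from CD14-deficient cells was log2 -1.37.

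Replication and mitosis genes differed in how much signal was left. On the wild-type LPS arrays the median replication gene kept 14.6% of its unstimulated signal at 48 h and 19.9% at 60 h, and the median mitosis gene kept 8.14% and 9.09%. On the 48 h LPS array of CD14-deficient cells the replication median was 44.2% and the mitosis median 15.9%. At 60 h they were 21.4% and 14.9%. The 16 replication genes here include Tyms. The difference between the groups was not tested, since genes are not replicates of a condition.

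The 2 LPS arrays of CD14-deficient cells differed from each other in members and in other genes. At 60 h, 8 members were at least 2-fold lower than at 48 h and 2 were higher, against 7.49% and 9.86% of all tested genes, and 7 of the 8 were replication genes: Mcm2, Mcm3, Mcm6, Mcm7, Cdc6, Rrm1 and Lig1. With the mean of all probe sets 4 members were lower. Mcm6 read 2240.1 unstimulated, 2210.1 at 48 h and 718 at 60 h, so that at 48 h it was at 98.7% of its unstimulated signal. Mcm3 read 1614, 1054 and 493, and Cdc6 read 250.1, 109.7 and 29.4. In each of these probe sets the 48 h array was above the 60 h array and under the unstimulated one. Other probe sets of Mcm3 were split. Brighter ones had the same course (722, 408 and 205, and 668, 458 and 273). Dimmer ones did not (214, 53.1 and 58.9, and 80.4, 15.8 and 41.4). The second probe set of Rrm1 read 421, 105 and 88.5, and so was not 2-fold lower at 60 h. The second probe set of Mcm6 had the same course (805, 766 and 259.5). The second probe set of Mcm2 went the other way, 171 at 48 h and 323 at 60 h, against 255 and 124 for the brighter one, so the time course of Mcm2 is uncertain.

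The mitosis gene that was 2-fold lower at 60 h was Cenpa, 1519.9 and then 664, and the 2 members that were higher were Ccnd1 (100.0 and 233) and Kif20a (10.2 and 31.6). Ccna2, Cdc20, Prc1 and Birc5 changed little between these arrays, at 197 and 244, 89.6 and 90.3, 106 and 106, and 146 and 140.0. Wild-type LPS arrays had no such drop: 4 members, Mcm5, Rrm1, Ccnb2 and Cdca3, were at least 2-fold higher at 60 h and 0 lower, against 4.84% and 1.73% of all tested genes. With thapsigargin, Rrm1 was higher and Mki67 lower in wild-type cells, 1 member each against 1.07% and 0.468% of genes. In CD14-deficient cells 2 were higher, Rad51ap1 and Cdc20, and 1 was lower, the dim Tyms, against 2.15% and 0.375%. The 48 h array is the one with low cRNA yield, high Kit and low macrophage markers, and its part in the difference was not tested.

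**Figure D3:**
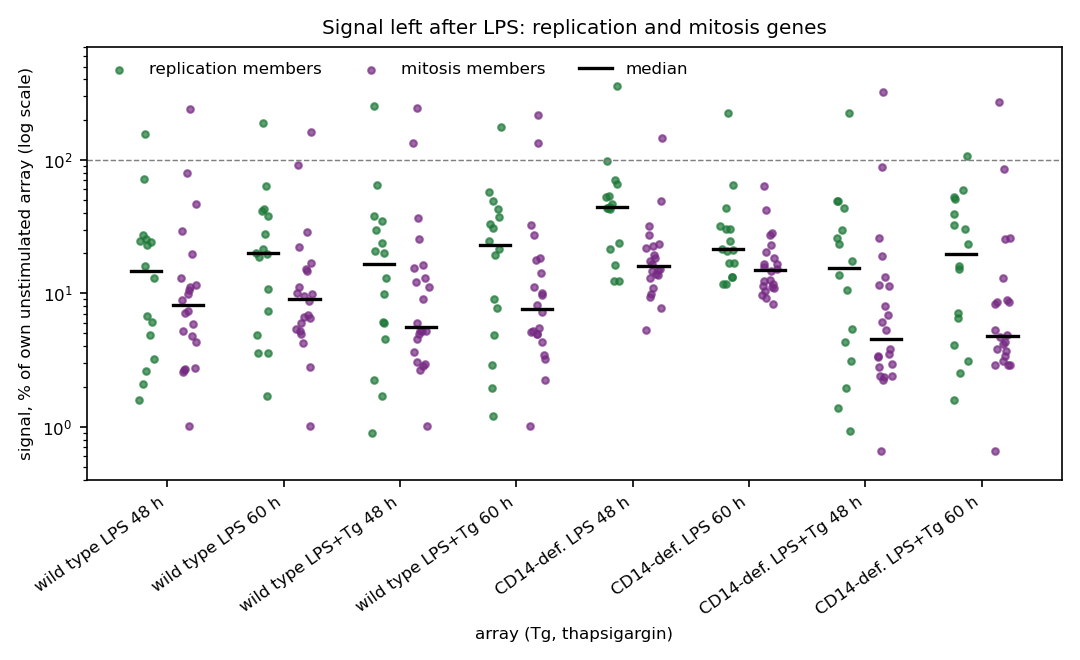
Signal left on each stimulated array as a percentage of the unstimulated array of the same genotype (log axis), 1 point per replication (green, 16) or mitosis (purple, 22) gene, with the median as a bar. The replication median is highest on the 48 h LPS array of CD14-deficient cells, 44.2%, and lies between 14.6% and 23.0% on the other arrays.

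**Figure D4:**
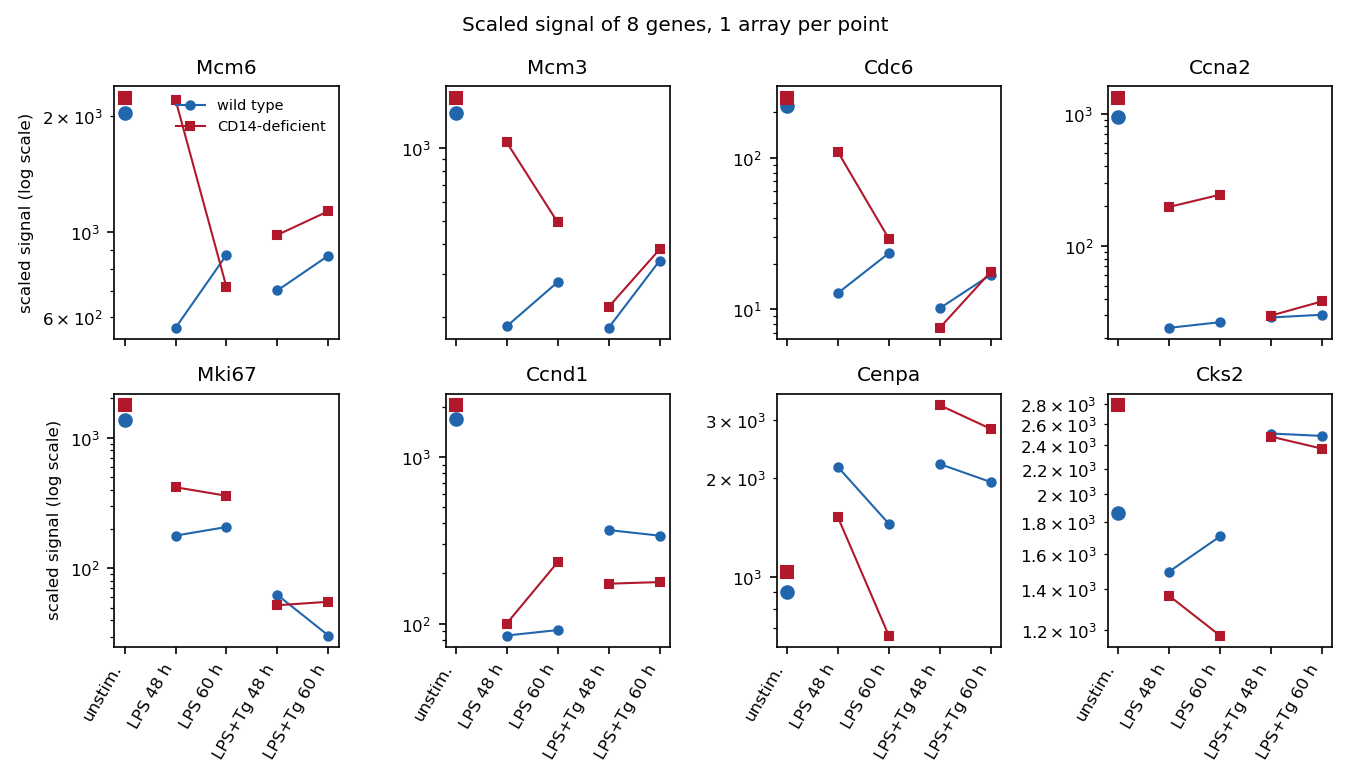
Scaled signal (log axis) of 8 members on all 10 arrays, 1 array per point, wild type as circles and CD14-deficient as squares, lines joining 48 and 60 h of a condition. Mcm6, Mcm3 and Cdc6 drop from 48 to 60 h with LPS in CD14-deficient cells, Ccna2 is higher there than on the other stimulated arrays, and Cenpa and Cks2 are high with thapsigargin.

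In wild-type cells no member was called when thapsigargin was added to LPS. In limma's fit 0 members passed, against 0.0535% of all tested genes called in either direction, and 4 members and 770 genes had an unadjusted p under 0.05. These 4 were Ccnd1, Mki67, Cks2 and Nusap1. Ccnd1 was higher with thapsigargin, 364 and 337 against 84.8 and 91.4 (1.99 ± 0.36, limma adjusted p = 0.167). Mki67 was lower, 62.4 and 30.5 against 178 and 207 (-2.13 ± 0.34, adjusted p = 0.149). Their arrays did not overlap between the treatments, a trait not counted over all genes, and neither gene passed. At single times, 1 of 40 members was at least 2-fold lower at 48 h and 1 at 60 h, Mki67 both times, against 3.4% and 2.84% of all tested genes.

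In CD14-deficient cells 12 members were lower and 2 were higher when thapsigargin was added to LPS, against 3.2% and 3.43% of all tested genes. With other filters 4 of 20 or 2 of 18 members were lower, and with no filter 4 of 40, against 2.61%, 2.46% and 0.533% of all tested genes. This comparison and that of the genotypes under LPS share the CD14-deficient LPS arrays. Rrm2 read 303 and 289.5 with LPS and 23.0 and 39.3 with thapsigargin added (-3.30 ± 0.29, limma adjusted p = 0.0109). Ube2c went from 159 and 198 to background on both arrays, at least 13.3-fold lower. Ccna2 went from 197 and 244 to 29.8 and 38.1 (-2.70 ± 0.24), and Pclaf from 774 and 610.1 to 50.1 and 92.0 (-3.34 ± 0.34). In each of these genes, picked from the called ones, both thapsigargin arrays were under both LPS arrays of the genotype. The share of all genes was not counted.

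The other members lowered by thapsigargin in CD14-deficient cells were Tk1, Rad51ap1, Bub1, Cdca3, Nusap1, Birc5, Shcbp1 and Mki67. Mki67 went from 417 and 358 to 52.0 and 55.3 (-2.85 ± 0.34, limma adjusted p = 0.0165), under the wild-type LPS arrays at 178 and 207. The 2 that rose were Cks2 (1366 and 1177 to 2479.6 and 2371, 0.94 ± 0.16) and Cenpa (1519.9 and 664 to 3319 and 2814, 1.61 ± 0.27). Neither had passed the test under LPS in wild-type cells. Of the 7 licensing genes 0 passed in limma's fit, with 4 at an unadjusted p under 0.05. Mcm6 changed by -0.26 ± 0.53, by 0.74 when the 48 h LPS array was left out and by -1.26 when the 60 h one was. By group, 4 of 15 replication genes were lower, and 8 of 22 mitosis genes were lower with 2 higher. At single times, 24 of 40 members were at least 2-fold lower at 48 h and 20 at 60 h, against 12.4% and 8.84% of all tested genes.

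This comparison also leaned on single arrays, among members and among all tested genes. The count of lower members was 18 when the 48 h LPS array of CD14-deficient cells was left out, 26 when their 60 h one was (13.6% and 20.2% of all tested genes), 7 without either wild-type LPS array and 0 without any 1 of the 4 thapsigargin arrays. When the effect of thapsigargin was compared between the genotypes, 0 members and 0% of all genes passed in limma's fit, while 21 members and 994 genes had an unadjusted p under 0.05. Without the 48 h LPS array of CD14-deficient cells 8 members passed as less lowered in wild type, against 2.42% of all tested genes, and 25 did without the one at 60 h, against 14.6%. With LPS and thapsigargin together the genotypes were close: 0 members differed, against 0.0268% of all tested genes, and 1 member and 329 genes had an unadjusted p under 0.05. That member was Ccnd1, at 364 and 337 in wild-type and 174 and 177 in CD14-deficient cells (1.00 ± 0.36, limma adjusted p = 1). The median member differed by log2 -0.18.

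**Figure D5:**
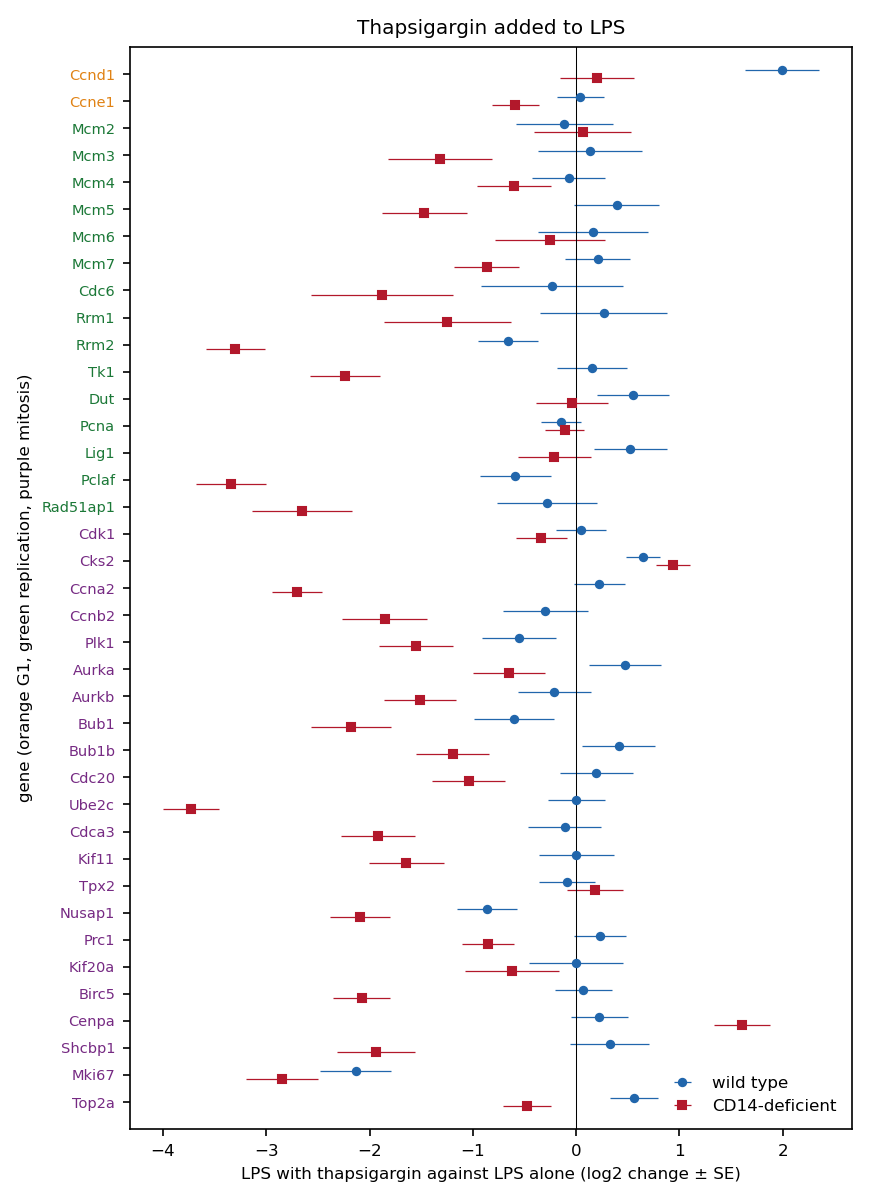
Change of each tested member when thapsigargin was added to LPS, as log2 change with its standard error from limma, in wild-type cells (circles) and CD14-deficient cells (squares). The CD14-deficient points reach log2 -3.73 (Ube2c, at the floor with thapsigargin), while the wild-type points lie between -0.86 (Nusap1) and 0.65 (Cks2) except Mki67 and Ccnd1.

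The wider cell-cycle machinery was followed through 7 lists of 120 further genes, of which 106 had a probe set and 99 were tested. Under LPS 52 were lower (52.5%) and 3 higher in wild-type cells, against 8.24% and 7.69% of all tested genes. In CD14-deficient cells 21 were lower (21.2%) and 1 higher, against 2.01% and 2.17%, and 60 were lower when the 48 h LPS array of these cells was left out, against 8.36%. The median change was log2 -1.49 in wild-type and -1.19 in CD14-deficient cells. Counts of the lists were taken without that array only. For the CD14-deficient LPS response and the genotypes under LPS, calls among all tested genes fell sharply without a wild-type LPS or thapsigargin array. They rose without the 48 h LPS array of CD14-deficient cells. Between the genotypes under LPS 4 were lower in wild type, Nuf2, Pole, Rad54l and Ccnd3, and 0 higher. That is 4.04% of the lists, close to the 2.57% of all tested genes, and with that array left out it was 15 (15.2%), against 9.22%.

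Spindle checkpoint and kinetochore genes moved most. In wild-type cells 18 of 20 were lower, with the deepest falls in Anln, a cytokinesis scaffold (-4.70 ± 0.40), Nuf2, part of the outer kinetochore (-4.62 ± 0.43), Kif23, a midzone motor (-4.56 ± 0.56), and Cenpf (-4.01 ± 0.39), and in CD14-deficient cells 14 of 20 were (18 without the 48 h LPS array). Of 33 origin and fork genes 15 were lower in wild-type cells, led by Uhrf1, which keeps DNA methylation through replication (-3.92 ± 0.60), the polymerase gene Pole (-3.64 ± 0.44), Gins1 (-3.32 ± 0.55) and Mcm10 (-3.19 ± 0.46). In CD14-deficient cells 2 of the 33 passed, Pola1 (-2.12 ± 0.32) and Gmnn, the licensing inhibitor geminin (-1.29 ± 0.24), against 19 without the 48 h LPS array. Condensin and cohesin genes were lower in 7 of 9 cases in wild-type cells and 0 of 9 in CD14-deficient cells, where 7 had an unadjusted p under 0.05 in limma's fit and 7 passed without the 48 h LPS array. Replication stress and repair genes were lower in 4 of 6 and 1 of 6 cases (the latter 4 of 6 without that array), with Brca1 (-3.22 ± 0.63) and Exo1 (-3.16 ± 0.42) deepest in wild type.

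The regulators above the cycle were more mixed. Among 15 genes of G1 control, 3 were lower in wild-type cells, E2f8 (-3.54 ± 0.53), Ccne2 (-3.53 ± 0.42) and Ccnd3 (-1.84 ± 0.25), and 1 was higher, E2f5 (1.85 ± 0.28). In CD14-deficient cells Ccne2 was the 1 gene called (-2.73 ± 0.42), and 6 were lower without the 48 h LPS array. Of 6 inhibitors of cyclin-dependent kinases, Cdkn2b rose in both genotypes, by 2.22 ± 0.41 in wild-type and 3.03 ± 0.41 in CD14-deficient cells. Cdkn2c fell in both (-2.73 ± 0.38 and -2.01 ± 0.38). With thapsigargin in CD14-deficient cells Cdkn1c (2.83 ± 0.32) and Cdkn1a (0.80 ± 0.15) rose, by 3.00 and 0.94 without the 48 h LPS array. Of 10 mitotic regulators 4 were lower in wild-type cells, Pkmyt1, Mybl2, Cdc25b and Cks1b, and Pttg1, the gene of the separase inhibitor securin, was higher (1.11 ± 0.15). In CD14-deficient cells Cdc25b (-2.75 ± 0.36) and Ccnf (-2.23 ± 0.39) were lower, and without that array 5 were.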

How the data were processed

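The deposited values are an intensity per probe set on a linear scale, which the authors made with MAS5, per the submitters' processing notes. The MAS5 version is not given in the sources used here, nor is its target. Trimmed means (2%) were between 444 and 553, and each array was scaled to 509. Signals under 13.4 were raised to that floor before log2. The platform table gave 1 symbol for 20380 of 22690 probe sets, several for 691 and none for 1619. Those with 1 symbol were used, the brightest per gene, and 7474 of 12393 genes passed the filter.

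All arrays entered 1 limma 3.58.1 model (R 4.3.3) with 6 genotype and treatment levels and a term for 60 h against 48 h, with eBayes and an intensity trend. Two-sided p-values were adjusted by the Benjamini-Hochberg method over all tested genes, and calls used 0.05. As no condition was repeated, 3 residual degrees of freedom measure departures from a common time shift, not the spread between cultures or mice. The script was tested on simulated data. A fold against a condition at the floor on both arrays is a lower bound from the floor.

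Members, lists and promoter motifs were chosen with earlier results of these data known. Values were given for every array, in each role, for the 2 members with the largest wild-type LPS change, the 2 with the largest genotype difference under LPS and those not called or against their class, and up to 4 called names per pathway list. The lists covered G1 control, kinase inhibitors, mitotic regulators, origin and fork, spindle and kinetochore, condensin and cohesin, and replication stress, with dendritic cell, macrophage, neutrophil, myeloid progenitor, mast cell and basophil, erythroid, B cell, T and NK cell and stromal cell markers. Alternatives were other scaling, filters, floor, probe-set rule, time term and variance prior, and leaving out arrays.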

Additional observations from a re-analysis of the deposited data

How the results depend on the processing

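No condition was repeated, so precision is limited by the number of arrays. Members under LPS in wild-type cells numbered 14 lower with a filter on the mean signal and 12 with a filter at 5 arrays, where fewer members are tested. The same filters, and no filter, gave 7, 5 and 9 lower in CD14-deficient LPS cells, 4, 2 and 2 lower in wild type between the genotypes under LPS, and 4, 2 and 4 lower with thapsigargin in CD14-deficient cells. Without a filter 0 were higher there, against 0.702% of all genes, and 1 was lower in the difference of LPS responses, against 0.524%. The mean of all probe sets gave 7 for the genotypes under LPS. Higher with thapsigargin in CD14-deficient cells was 1 member without scaling (2.31% of all tested genes) and 1 without the time term (3.48%). The difference of thapsigargin effects had 1 higher without the intensity trend (0.0134%). Leaving out the 2 arrays of lowest cRNA yield was chosen after seeing the data. It raised calls among all tested genes in every comparison, so its counts are not read as results about the members. It gave 1 higher in the wild-type LPS response, 1 higher between genotypes under LPS, 3 lower and 1 higher for the difference of LPS responses, 1 lower and 3 higher with thapsigargin in wild type, 22 lower and 4 higher in CD14-deficient cells, 1 lower and 9 higher for the difference of thapsigargin effects, and 1 lower and 1 higher between genotypes under both agents. Every probe set was also fitted as its own row, likewise chosen after seeing the data. Of 63 member probe sets, 55 were lower in the wild-type and 36 in the CD14-deficient LPS response. Of all 11649 probe sets tested, 897 and 147 were.

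With 1 array left out in turn, lower members ran from 17 to 37 for LPS in wild type, 0 to 38 for LPS in CD14-deficient cells, 0 to 29 between genotypes under LPS and 0 to 26 with thapsigargin in CD14-deficient cells, where higher members ran from 0 to 4. The difference of LPS responses ran from 0 to 17 lower and 0 to 1 higher, and that of thapsigargin effects from 0 to 1 lower and 0 to 25 higher. Thapsigargin in wild type ran from 0 to 2 in each direction, and higher members from 0 to 1 for LPS in wild type and between genotypes under LPS. Calls among all tested genes also rose or fell with the array left out, so these ranges are not particular to the members. The thapsigargin change of Mcm2 in CD14-deficient cells ranged from -0.79 without the LPS array at 60 h to 0.91 without the one at 48 h. That of Mcm6 ranged from -1.26 to 0.74, with 0.68 without both arrays of low yield.

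The median mitosis change under LPS, averaged over 48 and 60 h without the model, was -3.54 in wild type, -3.13 with a pseudocount of 16 and -2.95 with the mean of probe sets. In CD14-deficient cells it was -2.70, with -2.57 unscaled, -2.47 and -2.61. With thapsigargin it was -3.93 in wild type, with -3.31 and -3.18, and -4.43 in CD14-deficient cells, with -4.28 unscaled, -3.68 and -3.65. Counts of 2-fold members also moved. Unstimulated, 0 were higher unscaled and 0 with the pseudocount. At 60 h against 48 h, wild-type LPS cells had 1 higher with the pseudocount and 2 with the mean of probe sets, and CD14-deficient LPS cells had 1 higher with the pseudocount and 4 lower with the mean. Wild-type thapsigargin cells had 3 higher and 0 lower unscaled, 0 higher with quantile normalization or the mean, and 0 lower with the pseudocount. CD14-deficient thapsigargin cells had 5 higher and 0 lower unscaled, and 0 in either direction with the pseudocount or the mean. The causes were not tested. Harvest time, shared by arrays of different conditions, is a term of the model, and the fit without it is given above. No paired analysis was possible because no condition has numbered replicates to pair.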
